A study of Mus musculus with 9 samples.

Results

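The transcripts of 10 stress response genes were followed in *WT*, *KD1* and *KD2* HC11 cultures: *Hspa5*, *Dnajb9*, *Herpud1*, *Xbp1*, *Atf4*, *Atf3*, *Ddit3*, *Trib3*, *Asns* and *Chac1*. They were chosen by name as genes of endoplasmic reticulum (ER) stress and of the integrated stress response, and are 10 of the 55228 genes counted, of which 15253 had enough reads to be tested. All 10 passed the filter on low counts. HC11 is a mouse mammary epithelial line from the BALB/c strain, grown here undifferentiated in RPMI-1640 with 10% serum, 5 µg/mL insulin and 10 ng/mL EGF. The study asked how its transcriptome changes when *Vangl2*, a planar cell polarity gene, is disrupted. *WT* is the parental line, and *KD1* and *KD2* were derived from it with Cas9, a guide RNA against *Vangl2* and a repair template that carries stop codons. Cells of each *KD* line were grown out from single colonies, so each line stands for 1 clone, and the parental line is not a clone carried through the same steps. The labels call these lines knockouts. Poly-A RNA from 3 cultures of each line was sequenced, and no agent that causes stress was added to any culture.

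When unfolded proteins build up in the ER, the sensors IRE1, PERK and ATF6 raise the making of chaperones and of the machinery that takes misfolded proteins out for degradation. IRE1 splices *Xbp1* mRNA into the form that encodes the active factor. PERK, and the kinases GCN2, PKR and HRI that sense amino acid shortage, double-stranded RNA and heme or mitochondrial stress, phosphorylate eIF2, which slows translation in general but favours translation of *Atf4* mRNA. ATF4 then drives genes of amino acid uptake, amino acid synthesis and tRNA charging, together with *Ddit3* (CHOP), *Trib3*, *Asns* and *Chac1*. In the mammary gland, secretory differentiation expands the ER, and XBP1 is known for its part in that expansion. The counts are per gene, so they do not separate spliced from unspliced *Xbp1*, and they give the mRNA but not the protein of *Atf4*.

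The promoters of these genes are where the sensors' factors act, and 5 are shown here because each holds a known stress element upstream of its start. The sequences are from RefSeq (GRCm38.p6), 5′ to 3′, with the matched element in capitals. They cover the 250 bases before the start for *Herpud1*, *Atf3* and *Chac1*, and 30 bases around the element for *Hspa5* and *Asns*.
Hspa5, chr2:34772019-34772048, plus strand: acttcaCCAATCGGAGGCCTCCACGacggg
Herpud1, chr8:94386179-94386428, plus strand: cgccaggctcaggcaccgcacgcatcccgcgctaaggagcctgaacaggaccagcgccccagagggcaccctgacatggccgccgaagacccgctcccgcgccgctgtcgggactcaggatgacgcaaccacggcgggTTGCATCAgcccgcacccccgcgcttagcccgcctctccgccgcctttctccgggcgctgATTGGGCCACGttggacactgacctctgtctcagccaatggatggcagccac
Atf3, chr1:191183334-191183583, minus strand: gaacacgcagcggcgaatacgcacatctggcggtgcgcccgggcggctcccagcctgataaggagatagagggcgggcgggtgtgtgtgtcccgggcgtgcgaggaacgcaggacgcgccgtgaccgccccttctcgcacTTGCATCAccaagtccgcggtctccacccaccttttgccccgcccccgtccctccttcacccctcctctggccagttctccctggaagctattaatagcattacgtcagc
Asns, chr6:7693214-7693243, minus strand: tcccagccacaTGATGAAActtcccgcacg
Chac1, chr2:119350992-119351241, plus strand: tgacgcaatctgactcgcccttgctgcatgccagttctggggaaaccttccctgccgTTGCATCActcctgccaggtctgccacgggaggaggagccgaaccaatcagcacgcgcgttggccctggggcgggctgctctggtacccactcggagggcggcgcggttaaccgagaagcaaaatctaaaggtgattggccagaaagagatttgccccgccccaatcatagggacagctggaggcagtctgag

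All 10 genes were matched to a RefSeq window of 300 bases, 250 before and 50 after the start, and both strands were searched. The ER stress element ERSE, which is CCAAT and CCACG with 9 free bases between them, lay in *Hspa5* at bases -65 to -47, counted back from the start. It was found in 0.119% of 32851 windows of RefSeq starts. ERSE-II, ATTGG and CCACG with 1 free base between them, lay in *Herpud1* at -52 to -42 and in 0.0365% of windows. The ATF4 composite element, searched as TGATGNAA, lay at -112 to -105 in *Herpud1*, -110 to -103 in *Atf3*, -23 to -16 in *Asns* and -193 to -186 in *Chac1*. In *Trib3* it lay after the start, at 15 to 22. This short pattern was found in 3.97% of windows. The XBP1 and ATF6 element TGACGTGG (0.676% of windows) and the cyclic AMP element TGACGTCA (1.79%) were in none of the 10 windows, and no element matched in *Dnajb9*, *Xbp1*, *Atf4* or *Ddit3*. For *Hspa5*, *Dnajb9*, *Atf3*, *Ddit3*, *Asns* and *Chac1* the RefSeq start lies inside the GENCODE gene, which begins further upstream, and the elements of *Hspa5* and *Asns* fall in its annotated first exon. Only exact letters were counted, and sequence outside these windows was not searched.

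**Figure D1:**
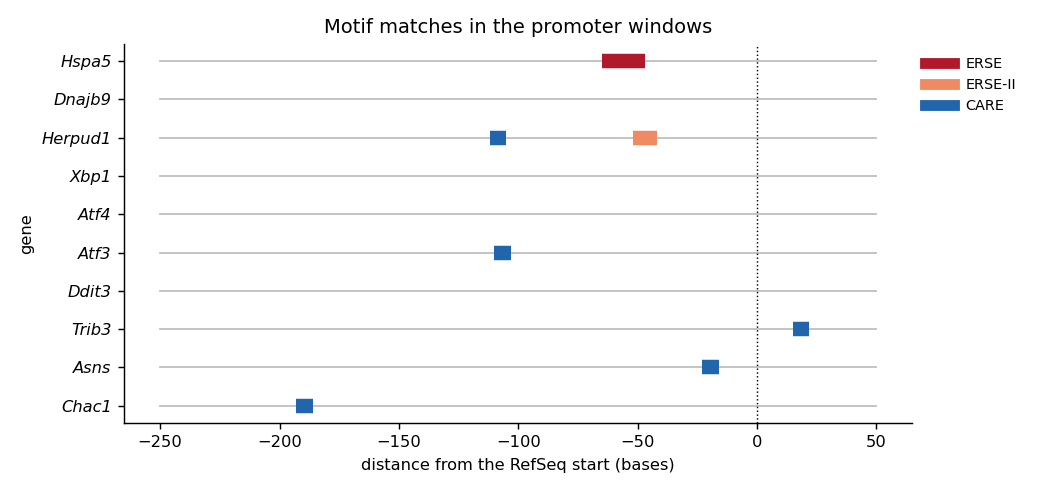
Matches to stress elements in the promoter windows of the 10 genes. The horizontal axis is the distance from the RefSeq start in bases, each grey line is 1 gene's window, and coloured blocks are matches on either strand; 6 of the 10 genes hold a match, and the only one after the start is that of Trib3.

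Depth was 20030410 to 25505223 counts per culture in *WT*, 25514438 to 27896032 in *KD1* and 19231428 to 28360592 in *KD2*. *WT* replicate 1 and *KD2* replicate 3 stood apart from the other cultures of their lines: chi-square per degree of freedom between counts was 10.7 and 13.1 for pairs with that *WT* culture against 3.38 for the other pair, and 17.4 and 22.1 for pairs with that *KD2* culture against 1.74. The targeted gene was checked first. *Vangl2* lay at 3.38, 3.96 and 4.20 CPM (counts scaled to library size) in *WT*, at 2.77, 1.89 and 2.78 in *KD1* and at 3.64, 3.93 and 4.43 in *KD2*. It fell in *KD1* (log2 fold change -0.63 ± 0.17 SE, adjusted p = 0.0058) and did not pass in *KD2* (0.05 ± 0.16, adjusted p = 0.81), so its mRNA gives no check of the label of *KD2*. At the protein level, the study reports from immunoblots almost no VANGL2 in *KD1* and a strong reduction in *KD2*. Of the epithelial markers, 9 of 10 were expressed and *Krt19* was at 0 counts in all cultures. Their summed level was 5606 to 6141 CPM in *WT*, 6171 to 6329 in *KD1* and 3254 to 3931 in *KD2*. Most of the *WT* sum was *Krt5* (mean 2117 CPM) and *Krt14* (1527). In *KD2* these fell (log2 -0.96 and -0.90), as did *Epcam*, *Cdh1*, *Trp63* and *Esrp1*. *Krt8* rose in *KD2* (0.76, adjusted p = 7.4e-06), and *Krt18* (0.13, adjusted p = 0.16) and *Krt7* (0.04, adjusted p = 0.68) did not pass. Single markers differed in *KD1* as well: *Trp63* (0.73), *Krt18* (0.71), *Cdh1* (0.37) and *Epcam* (0.31) rose, and *Esrp1* fell (-0.66). *Krt5*, *Krt14*, *Krt8* and *Krt7* did not pass in *KD1*. The sum of 6 fibroblast markers was 13.4 to 18.96 CPM in *WT*, 7.99 to 9.97 in *KD1* and 23.6 to 24.6 in *KD2*, and those of leukocytes, endothelium and adipocytes were at most 8.30 CPM, reached in *KD1*. The markers *Lum*, *Thy1*, *Ptprc*, *Adgre1*, *Cd3e*, *Kdr*, *Emcn*, *Vwf*, *Adipoq*, *Plin1* and *Lep* were at or under 3 counts in every culture. The part of these marker levels in the results below was not tested.

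In *KD1*, 3 of the 10 genes rose and 6 fell at an adjusted p under 0.05 in edgeR's quasi-likelihood test, where 26.9% of all genes tested rose and 30.0% fell. In *KD2*, 2 rose and 7 fell, against 34.0% and 33.3% of all genes. *Hspa5* and *Xbp1* rose in both lines, and *Herpud1*, *Atf4*, *Ddit3*, *Trib3*, *Asns* and *Chac1* fell in both. *Dnajb9* passed as higher in *KD1* and *Atf3* as lower in *KD2*, while neither passed in the other line, and for each of these genes *KD2* differed from *KD1*. Past the study's limit of a 2-fold change, 1 gene rose (*Xbp1*) and 2 fell (*Ddit3* and *Trib3*) in *KD1*, against 9.34% and 7.49% of all genes, and 1 fell in *KD2* (*Asns*), against 6.71%. The median log2 fold change of the 10 genes was -0.34 in *KD1* and -0.81 in *KD2*, beside -0.03 and 0.01 over all genes tested. The comparisons share the *WT* cultures, so their results are not independent of each other. In bulk RNA, fewer cells that express a gene and less RNA per cell cannot be told apart.

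**Figure D2:**
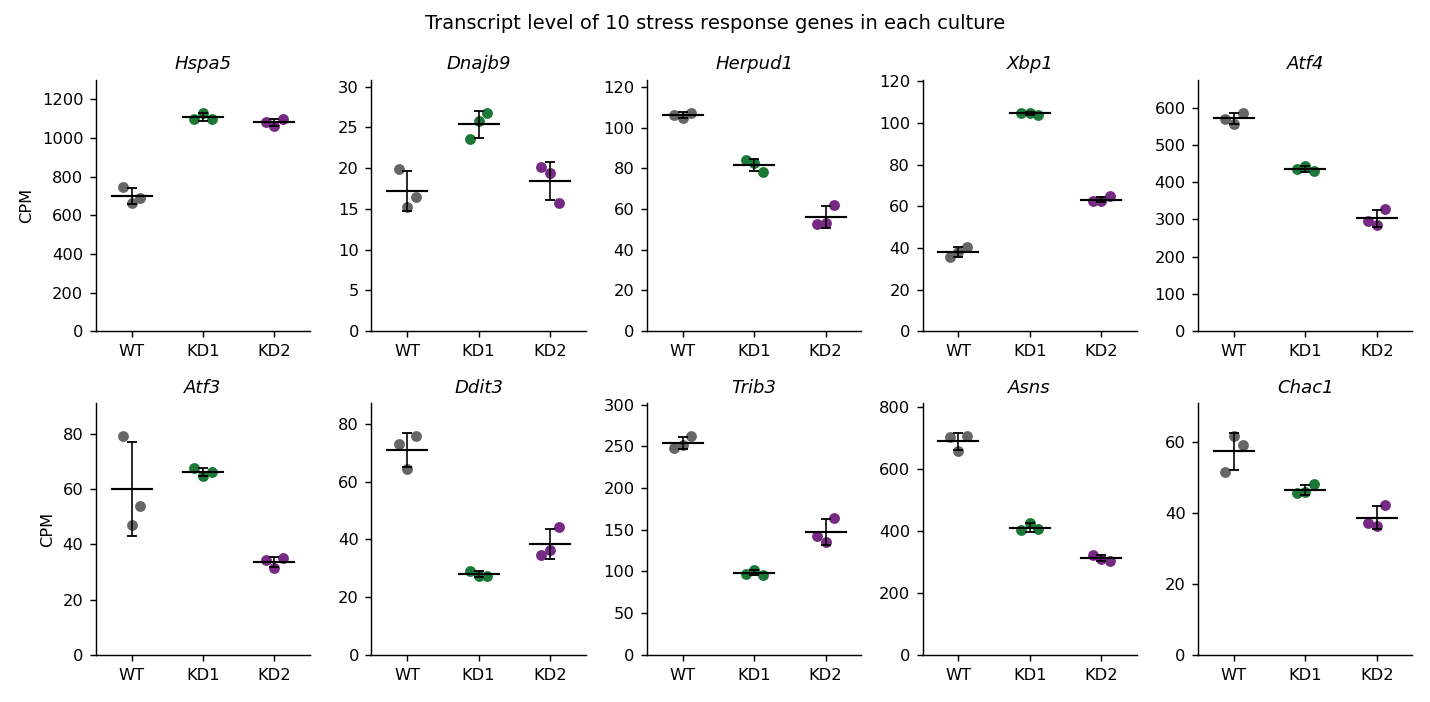
Level of each gene in CPM (vertical axes, from 0) in the 3 cultures of WT, KD1 and KD2; points are cultures, horizontal lines are means and error bars are SD over 3 cultures. Hspa5 and Xbp1 lie above WT in every KD culture, and Herpud1, Atf4, Ddit3, Trib3, Asns and Chac1 lie below it.

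*Hspa5* encodes BiP, the main Hsp70 chaperone of the ER lumen, which also holds the sensors inactive (GRCm38, chr2:34771970-34777547, plus strand). It lay at 744, 666 and 688 CPM in *WT*, at 1097, 1131 and 1096 in *KD1*, and at 1084, 1062 and 1095 in *KD2*. All 6 *KD* cultures were above all 3 *WT* cultures, and the lowest *KD1* culture and the highest *KD2* culture were almost level. Means were 699 ± 40.5 (SD, n = 3), 1108 ± 20.1 and 1080 ± 17.0 CPM, so *KD1* was at 158% of *WT* (log2 0.66 ± 0.053 SE, adjusted p = 1.1e-07) and *KD2* at 155% (0.63 ± 0.053, adjusted p = 1.7e-07). Between *KD2* and *KD1* the log2 difference was -0.04 ± 0.053 (adjusted p = 0.56), and its range over 17 alternative fits was -0.08 to 0.09. *Hspa5* is the gene whose promoter holds the ERSE shown above.

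*Dnajb9* encodes ERdj4, a J-domain partner of BiP (chr12:44205559-44210326, minus strand). It lay at 19.9, 15.3 and 16.4 CPM in *WT*, at 23.6, 25.8 and 26.8 in *KD1*, and at 20.1, 19.4 and 15.7 in *KD2*. The *KD1* cultures were above all others, and *KD2* overlapped *WT*. It rose in *KD1* (log2 0.57 ± 0.11 SE, adjusted p = 5.5e-04), while *KD2* against *WT* gave 0.11 ± 0.11 (adjusted p = 0.40) and *KD2* against *KD1* gave -0.46 ± 0.11 (adjusted p = 0.0019). The *KD2* value depended on the cultures that stood apart. Without *KD2* replicate 3 it was 0.23 (adjusted p = 0.031). Without that culture and *WT* replicate 1 it was 0.32 (adjusted p = 3.0e-04). Relative to the median over the tested genes of chromosome 12, which was 0.23 in *KD2*, the value from all cultures was -0.12. The count of *Dnajb9* is uncertain to a small extent, since 5.5% of its 50-base windows also occur in another gene, mainly *Gm6568*. Its exons also overlap *Mir5627* on the opposite strand by 14 bases.

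*Herpud1* encodes an ER membrane protein that assembles the degradation complex for misfolded proteins (chr8:94386438-94395377, plus strand). It lay at 106, 105 and 107 CPM in *WT*, at 84.2, 82.6 and 78.4 in *KD1*, and at 52.7, 53.3 and 62.1 in *KD2*. The 3 lines did not overlap, with *WT* the highest and *KD2* the lowest. It fell in *KD1* (log2 -0.38 ± 0.067 SE, adjusted p = 2.8e-04) and in *KD2* (-0.92 ± 0.069, adjusted p = 4.6e-08). *KD2* was below *KD1* (log2 -0.55 ± 0.068, adjusted p = 7.3e-06). In *KD1* the median over the tested genes of chromosome 8 was -0.26, and *Herpud1* relative to it was at -0.11.

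*Xbp1* encodes the factor that acts downstream of IRE1 (chr11:5520659-5525893, plus strand), and its total mRNA had the largest rise of the 10 genes in both lines. It lay at 35.4, 38.2 and 40.5 CPM in *WT*, at 105, 105 and 104 in *KD1*, and at 62.6, 62.3 and 64.7 in *KD2*. The lines did not overlap, with *KD1* highest and *KD2* between *KD1* and *WT*. *KD1* was at 275% of *WT* (log2 1.46 ± 0.061 SE, adjusted p = 1.1e-10) and *KD2* at 166% (0.73 ± 0.062, adjusted p = 1.6e-07), and *KD2* was below *KD1* (log2 -0.73 ± 0.059, adjusted p = 8.8e-08). In *KD2* the rise of *Xbp1* was close to that of *Hspa5* (0.63 ± 0.053). Without *WT* replicate 1 the log2 values in *KD2* were 0.68 for *Xbp1* and 0.67 for *Hspa5*.

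*Atf4* encodes the main factor of the integrated stress response (chr15:80255184-80257541, plus strand). It lay at 570, 555 and 587 CPM in *WT*, at 434, 443 and 429 in *KD1*, and at 296, 285 and 327 in *KD2*. The lines did not overlap, and *KD2* was the lowest. It fell in *KD1* (log2 -0.39 ± 0.059 SE, adjusted p = 6.2e-05) and in *KD2* (-0.91 ± 0.059, adjusted p = 1.2e-08), with *KD2* below *KD1* (log2 -0.52 ± 0.059, adjusted p = 2.6e-06).

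*Atf3* encodes a stress-induced factor of the same bZIP family (chr1:191170296-191218039, minus strand). It lay at 79.1, 47.1 and 53.9 CPM in *WT*, at 67.4, 64.8 and 66.1 in *KD1*, and at 34.3, 31.6 and 35.0 in *KD2*. The *KD2* cultures were below all others, whereas the *WT* cultures lay on both sides of *KD1*. It fell in *KD2* (log2 -0.83 ± 0.14 SE, adjusted p = 1.3e-04) and *KD1* against *WT* gave 0.14 ± 0.14 (adjusted p = 0.39). That *KD1* value rests on *WT* replicate 1, the highest *WT* culture: without it the value was 0.39 (adjusted p = 8.1e-04). *KD2* was below *KD1* (log2 -0.98 ± 0.14, adjusted p = 2.6e-05).

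*Ddit3* encodes CHOP, a factor tied to cell death after prolonged stress (chr10:127290774-127296288, plus strand). It lay at 73.0, 64.5 and 75.8 CPM in *WT*, at 29.1, 27.5 and 27.2 in *KD1*, and at 34.6, 36.5 and 44.3 in *KD2*. The lines did not overlap, and here *KD1*, not *KD2*, was the lowest. *KD1* was at 39.3% of *WT* (log2 -1.35 ± 0.091 SE, adjusted p = 1.9e-08) and *KD2* at 54.0% (-0.89 ± 0.089, adjusted p = 9.6e-07), with *KD2* above *KD1* (0.46 ± 0.092, adjusted p = 5.3e-04). The count of *Ddit3* is uncertain because 2 overlapping gene models carry this name, 4.38% of its 50-base windows are shared, and its exons overlap *Mars* on the opposite strand by 68 bases. *Mars* itself did not pass in *KD1* (log2 -0.07, adjusted p = 0.34) and fell in *KD2* (-0.43).

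*Trib3* encodes a pseudokinase that is induced by ATF4 and CHOP and restrains them (chr2:152337422-152344032, minus strand). It lay at 248, 251 and 262 CPM in *WT*, at 97.5, 102 and 95.9 in *KD1*, and at 143, 135 and 165 in *KD2*. Its order over the lines was that of *Ddit3*, with *KD1* lowest and no overlap. *KD1* was at 38.7% of *WT* (log2 -1.37 ± 0.072 SE, adjusted p = 1.2e-09) and *KD2* at 58.0% (-0.79 ± 0.070, adjusted p = 3.0e-07), and *KD2* was above *KD1* (0.58 ± 0.071, adjusted p = 5.5e-06).

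*Asns* encodes asparagine synthetase (chr6:7675169-7693254, minus strand). It lay at 703, 659 and 706 CPM in *WT*, at 402, 426 and 405 in *KD1*, and at 322, 311 and 302 in *KD2*. The lines did not overlap, and *KD2* was the lowest. *KD1* was at 59.7% of *WT* (log2 -0.75 ± 0.054 SE, adjusted p = 4.1e-08) and *KD2* at 45.2% (-1.15 ± 0.055, adjusted p = 6.3e-10), with *KD2* below *KD1* (-0.40 ± 0.054, adjusted p = 1.5e-05).

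*Chac1* encodes an enzyme that breaks down glutathione (chr2:119351229-119354381, plus strand). It lay at 51.5, 61.6 and 59.0 CPM in *WT*, at 45.5, 45.9 and 48.0 in *KD1*, and at 37.1, 36.3 and 42.3 in *KD2*. The lines did not overlap, but the steps between them were the smallest among the 6 genes that fell in both lines. It fell in *KD1* (log2 -0.30 ± 0.078 SE, adjusted p = 0.0040) and in *KD2* (-0.58 ± 0.079, adjusted p = 1.8e-05). The difference between *KD2* and *KD1* (-0.27 ± 0.079, adjusted p = 0.0073) was lost when libraries were scaled by size alone (-0.15, adjusted p = 0.12), a scaling that shifts the median of all genes in this comparison by 0.13.

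Set against each other, *KD2* was lower than *KD1* for 7 of the 10 genes and higher for 2, against 33.0% and 34.8% of all genes tested. The 2 that were higher in *KD2* were *Ddit3* and *Trib3*. *Hspa5* was the remaining gene.

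**Figure D3:**
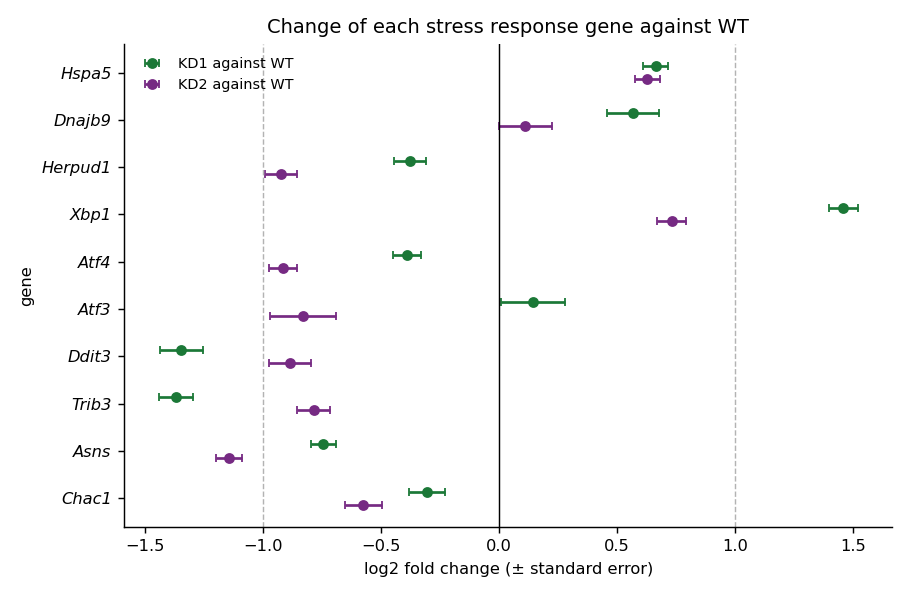
Log2 fold change of each gene against WT (horizontal axis) in KD1 and KD2; points are estimates, bars are standard errors and dashed lines mark a 2-fold change. Xbp1 is past the upper line in KD1 alone, Ddit3 and Trib3 are past the lower line in KD1, and Asns is past it in KD2.

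Levels were compared between genes as CPM per kilobase of exon. In *WT*, *Asns* (252) and *Atf4* (242) were the highest and their cultures overlapped. *Hspa5* (165) and *Trib3* (119) followed, then *Herpud1* (45.5), *Ddit3* (41.5), *Chac1* (35.0), *Atf3* (27.9), *Xbp1* (11.7) and *Dnajb9* (6.75), where *Chac1* and *Atf3* overlapped. In *KD1* the chaperone led, with *Hspa5* at 262 CPM per kilobase, above *Atf4* (185), *Asns* (150) and *Trib3* (46.3). *Xbp1* (32.2) stood above *Atf3* (30.7), *Chac1* (28.4) and *Ddit3* (16.3) in that line, although it was below all 3 in *WT*. In *KD2*, *Hspa5* (255) was again above *Atf4* (128), *Asns* (114) and *Trib3* (69.4), and the cultures of *Herpud1* (24.0), *Chac1* (23.6) and *Ddit3* (22.5) overlapped. *Dnajb9* was the lowest in all 3 lines.

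**Figure D4:**
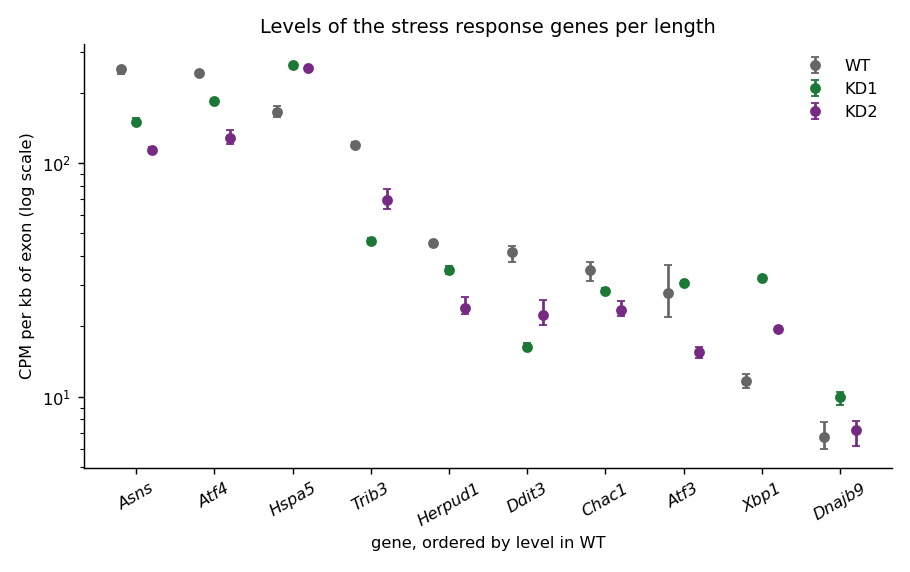
Level per length (CPM per kilobase of exon, log axis) of the 10 genes in each line, ordered by the level in WT; points are means of 3 cultures and bars reach from the lowest to the highest culture. Hspa5 is below Asns and Atf4 in WT and first in KD1 and KD2, and Dnajb9 is last in each line.

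The genes around the 10 were described from 6 lists, which share no gene with them. The list of ER chaperones and folding enzymes moved as *Hspa5* did in *KD1*: 17 of 20 rose and 1 fell, with a median log2 fold change of 0.61. In *KD2*, 13 rose and 4 fell, with a median of 0.24. Over all genes tested, 26.9% rose and 30.0% fell in *KD1*, and 34.0% and 33.3% in *KD2*. *Hsp90b1*, the ER member of the Hsp90 family, rose in *KD1* (log2 0.75 ± 0.054 SE, adjusted p = 3.9e-08) and in *KD2* (0.45 ± 0.054, adjusted p = 4.9e-06). *Manf*, a secreted ER stress factor, had the largest rise of the list in *KD1* (1.13 ± 0.085, adjusted p = 5.8e-08) and rose by 0.39 in *KD2* (adjusted p = 9.9e-04). The disulfide isomerase gene *Pdia4* rose in *KD1* (0.62, adjusted p = 3.3e-07) and gave 0.10 in *KD2* (adjusted p = 0.13).

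*Dnajc3*, which encodes the inhibitor P58IPK of PERK, rose by 0.51 in *KD1* (adjusted p = 6.5e-06) and fell by 0.47 in *KD2* (adjusted p = 1.3e-05), and the lines differed (-0.97 ± 0.061, adjusted p = 5.4e-09). Relative to the median of its chromosome, which is 14, the *KD2* value was 0.0031. *Ero1l*, the main oxidase of the ER, lay at 302, 208 and 223 CPM in *WT*, at 307, 317 and 313 in *KD1* and at 83.1, 84.6 and 71.8 in *KD2*. It fell in *KD2* (-1.61 ± 0.11, adjusted p = 3.0e-08), the largest fall of this list. *Ero1l* lies on chromosome 14 as well, so its fall includes the shift of the same chromosome median. Between *KD2* and *KD1*, 15 of the 20 genes were lower and 2 higher, against 33.0% and 34.8% of all genes.

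Of 19 tested genes of ER-associated degradation and translocation, 14 rose and 2 fell in *KD1* (median 0.37), and 10 rose and 4 fell in *KD2* (median 0.21). The shares over all genes were 26.9% and 30.0% in *KD1* and 34.0% and 33.3% in *KD2*. *Sec24d*, a coat gene of vesicles that leave the ER, had the largest rise (1.31 ± 0.063 in *KD1*, adjusted p = 4.4e-10, and 0.94 ± 0.063 in *KD2*, adjusted p = 1.7e-08). *Edem1*, a lectin-like gene of the degradation route, rose by 0.54 in *KD1* (adjusted p = 2.8e-06) and by 0.44 in *KD2* (adjusted p = 1.6e-05). *Sel1l*, an adaptor of the HRD1 ligase, fell in both (-0.33, adjusted p = 0.0036, and -0.51, adjusted p = 8.6e-05). *Herpud1*, whose product works with the same ligase, fell in both lines too.

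Genes of amino acid supply under ATF4 moved as *Atf4* and *Asns* did. Of 29, 24 fell in *KD1* and the other 5 did not pass, with a median log2 fold change of -0.64, and 28 fell in *KD2* and 1 rose, with a median of -1.12. Over all genes, 30.0% fell in *KD1* and 33.3% in *KD2*, and 26.9% and 34.0% rose. A fall past 2-fold was seen for 6 genes in *KD1* and 17 in *KD2*, against 7.49% and 6.71% of all genes. *Psat1*, an enzyme of serine synthesis, lay at 874, 850 and 892 CPM in *WT*, at 555, 568 and 555 in *KD1* and at 331, 320 and 321 in *KD2* (log2 -0.64 ± 0.049, adjusted p = 6.5e-08, and -1.43 ± 0.049, adjusted p = 3.4e-11). *Pycr1*, of proline synthesis, fell most in *KD1* (-2.04 ± 0.070, adjusted p = 1.1e-11) and less in *KD2* (-1.04, adjusted p = 9.9e-09).

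*Cth*, of cysteine synthesis, fell most in *KD2*, from 136, 97.8 and 108 CPM in *WT* to 12.5, 12.1 and 10.7 (-3.27 ± 0.12, adjusted p = 4.0e-11), and less in *KD1* (-0.86, adjusted p = 5.2e-06). The cystine carrier *Slc7a11* fell in *KD2* (-1.77 ± 0.099, adjusted p = 3.0e-09), gave -0.02 in *KD1* (adjusted p = 0.86), and differed between the lines (-1.75 ± 0.099, adjusted p = 1.9e-09). The arginine carrier *Slc7a3* went the other way, at 1.13, 0.680 and 0.586 CPM in *WT* and 1.82, 1.66 and 2.41 in *KD2* (1.29 ± 0.27, adjusted p = 7.5e-04), and rested on 12 to 50 counts per culture.

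Of 15 tested signalling genes of the ATF4 programme, 12 fell and 3 rose in *KD1* (median -0.65), and 11 fell and 1 rose in *KD2* (median -0.81). Over all genes, 30.0% fell and 26.9% rose in *KD1*, and 33.3% fell and 34.0% rose in *KD2*. *Nupr1*, a stress-induced chromatin protein, fell in *KD1* (-1.19 ± 0.090, adjusted p = 6.4e-08) and in *KD2* (-1.17 ± 0.090, adjusted p = 6.7e-08). *Sesn2*, an inhibitor of mTORC1 that senses leucine, fell in *KD1* (-0.46, adjusted p = 2.2e-04) and in *KD2* (-1.51, adjusted p = 3.0e-09). *Stc2*, a secreted glycoprotein, fell most in *KD1* (-2.94 ± 0.10, adjusted p = 1.8e-11). *Fgf21*, a stress hormone, fell most in *KD2* (-2.59 ± 0.28, adjusted p = 1.7e-06) but rested on 6 to 46 counts per culture. *Bcl2l11*, the proapoptotic gene that encodes BIM, rose in *KD2* from 8.40, 9.80 and 9.03 CPM in *WT* to 23.4, 22.4 and 24.0 (1.35 ± 0.082, adjusted p = 6.1e-09), while *Ddit3*, whose product is known to raise it, fell.

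Of 17 genes of the stress sensors and of eIF2 control, 2 rose and 5 fell in *KD1* (median -0.08), and 2 rose and 11 fell in *KD2* (median -0.38). The share that fell in *KD1* was 29.4% of the list, close to the 30.0% of all genes, and in *KD2* it was 64.7% against 33.3%. In each line 11.8% of the list rose, against 26.9% of all genes in *KD1* and 34.0% in *KD2*. These small counts moved with the processing. The 2 that rose in *KD1* became 5 with only the 6 cultures compared or without *KD2* replicate 3. The 2 that rose in *KD2* became 5 with library size only. The 5 that fell in *KD1* became 3 without *WT* replicate 2 or 3, while 9 to 11 fell in *KD2* in every setting. *Ern1*, which encodes IRE1, gave 0.19 ± 0.088 in *KD1* (adjusted p = 0.081) and fell in *KD2* (-0.46 ± 0.090, adjusted p = 4.4e-04), and the *KD1* value was 0.33 without *WT* replicate 1 (adjusted p = 7.5e-04). *Eif2ak3*, which encodes PERK, rose in *KD1* (0.53 ± 0.063, adjusted p = 6.3e-06) and gave 0.12 in *KD2* (adjusted p = 0.10). *Eif2ak4*, which encodes GCN2, fell in both lines (-0.23, adjusted p = 0.0062, and -0.25, adjusted p = 0.0034). Its *KD1* call was lost without *WT* replicate 2 (adjusted p = 0.054) or 3 (0.051), and its *KD2* call with library size only (0.077). *Eif2ak2*, which encodes PKR, rose in *KD1* (0.67 ± 0.084, adjusted p = 1.2e-05) and in *KD2* (0.87 ± 0.084, adjusted p = 6.5e-07). It was the only gene of this list higher in both lines, where 5 were lower in both.

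*Atf6* fell in *KD1* (-0.37 ± 0.093, adjusted p = 0.0039), and its fall in *KD2* (-0.25 ± 0.093, adjusted p = 0.027) was lost without *WT* replicate 1 (-0.14, adjusted p = 0.15). *Ppp1r15a* is the stress-induced gene GADD34, whose product takes part in removing the phosphate from eIF2. It lay at 63.7, 41.2 and 48.7 CPM in *WT*, at 26.5, 21.7 and 22.1 in *KD1* and at 23.5, 23.5 and 24.7 in *KD2*. All *KD* cultures were below all *WT* cultures (-1.12 ± 0.13, adjusted p = 4.9e-06, and -1.09 ± 0.13, adjusted p = 4.8e-06). *Mbtps2*, a protease that cuts ATF6, fell in *KD2* (-1.12 ± 0.096, adjusted p = 1.9e-07), where the median over the tested genes of chromosome X, on which it lies, was -0.63.

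Heat shock genes of the cytosol, a stress response outside the ER, were counted for comparison. Of 10, 6 rose and 2 fell in *KD1* (median 0.38), and 4 rose and 2 fell in *KD2* (median 0.13). In *KD2* the 40.0% that rose was close to the 34.0% of all genes, and in *KD1* 60.0% rose against 26.9%. *Hspb1*, a small heat shock chaperone, rose by 1.33 in *KD1* (SE 0.11, adjusted p = 1.8e-07) and by 0.50 in *KD2* (adjusted p = 0.0012). *Hspa1a* and *Hspa1b* are near-identical copies, so their counts are uncertain. *Hspa1b* is 1 of the 4 that rose in *KD2* (0.86, adjusted p = 3.6e-08), the largest of those rises. In *KD1* it gave 0.14 (adjusted p = 0.075).

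**Figure D5:**
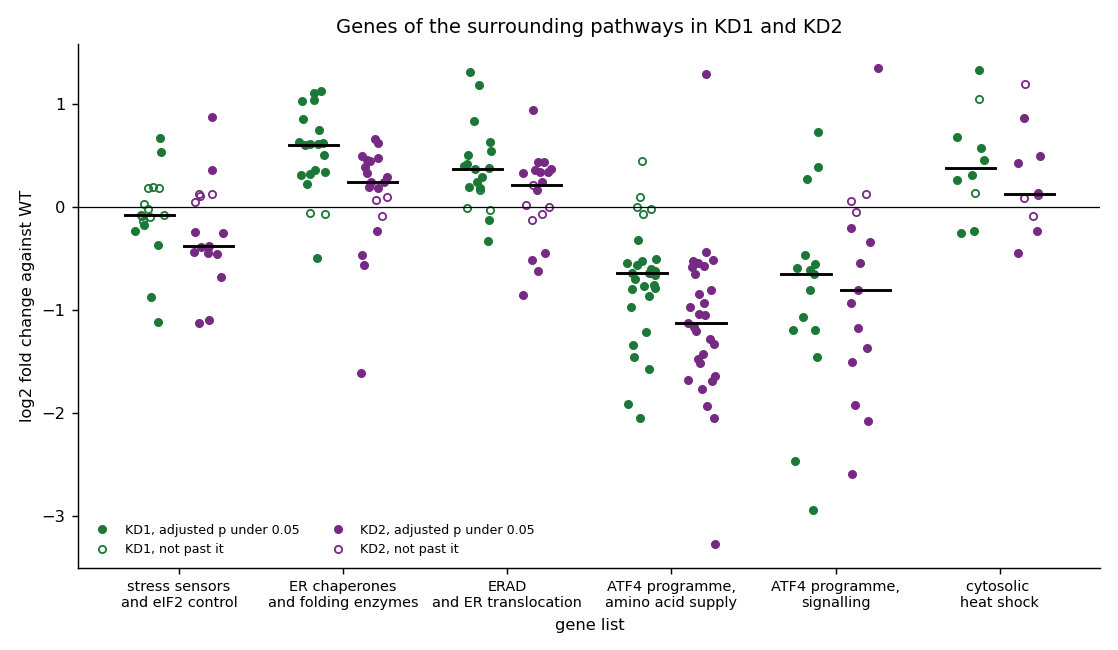
Log2 fold change against WT (vertical axis) of every tested gene of the 6 lists in KD1 and KD2; filled points have an adjusted p under 0.05, open points do not, and black bars are medians. The chaperone and degradation lists have medians above 0, from 0.21 to 0.61, and both ATF4 lists have medians below 0, from -1.12 to -0.64.

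Among 11320 genes with a mean log2 CPM above 1, the genes whose levels ran closest to those of *Xbp1* over the 9 cultures were *Tpd52l1*, *Ttc39c* and *Aldh3a2*, at root mean square differences of 0.068, 0.080 and 0.086 on the centred log2 scale. *Ttc39c*, for example, had means of 158, 463 and 263 CPM in *WT*, *KD1* and *KD2*. Closest to *Trib3* were *Stk40*, *Ltbp4* and *Pard6a*, at 0.071, 0.080 and 0.086. *Stk40* had means of 57.2, 22.9 and 35.6 CPM. *Xbp1* and *Trib3* were used because their line means had the largest ranges among the 10 genes, at 1.46 and 1.37 on the log2 scale.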

How the data were processed

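RNA-seq counts from 9 cultures of HC11 cells were used, 3 each of *WT*, *KD1* and *KD2*, with line and replicate number taken from the sample labels. For 55228 genes the authors deposited raw, unnormalized counts. Per the methods and the submitters' processing notes, fastp was used to filter and trim reads, HISAT2 to map them (GRCm38) and featureCounts to count those over the exons of each gene. Tool versions and the strand setting are not given in the sources used here. Reads of a gene and of an overlapping gene on the other strand may therefore not be told apart. The 10 genes and the gene lists were chosen with earlier results of these data known.

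The quasi-likelihood test of edgeR 4.0.16 (R 4.3.3, limma 3.58.1) was fitted once to all 9 cultures after TMM scaling and edgeR's filter on low counts. Benjamini-Hochberg adjustment ran over the 15253 genes left, and a gene passed at an adjusted p under 0.05. Standard errors are the log2 fold change over the root of F. CPM use TMM-scaled library sizes, and errors of means are SD (n = 3). A floor of 3 counts was used. Depth was 19231428 to 28360592 counts per culture, and totals cover counting error only. The labels do not say whether cultures of a line were grown independently, and if they were not, p-values measure only the spread between these samples, which may be technical. Chi-square per degree of freedom was 1.37, 1.54 and 1.81 for the *KD1* pairs and 1.74 for *KD2* replicates 1 and 2. Whether any of these pairs are technical copies was not tested, and all 9 cultures were counted as separate samples.

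Alternatives were other scaling factors, library size alone, other filters, a replicate block, only the 6 cultures compared, each of the 9 cultures left out, DESeq2 1.42.0, an adjusted p under 0.01 and subtraction of the chromosome median. Leaving out *WT* replicate 1 and *KD2* replicate 3 together was chosen after seeing the data. Same-numbered cultures of different lines deviated with a mean correlation of 0.0012 (lowest -0.065), so numbers do not pair them.

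Named genes were the 10, *Vangl2*, 14 genes of the lists taken whatever their values, the largest rise and fall past 2-fold in each list and line, and the 3 nearest profiles to the 2 genes of largest range. *Eif2ak2*, *Mars*, *Hspa1a*, *Hspa1b* and the epithelial markers given singly were named after their values were seen. Positions and exon lengths are from GENCODE M21, in which 53457 gene names matched 1 model, and promoters are from RefSeq (GRCm38.p6). M21 is not the GENCODE release that the study names for its counts, so gene models may differ.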

Additional observations from a re-analysis of the deposited data

Results flagged for a closer look

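For 9 of the 10 genes the change against *WT* differed between *KD1* and *KD2* by the test of the difference itself, which is *KD2* against *KD1* in edgeR's quasi-likelihood test, since both share the *WT* cultures. *KD2* was lower on the log2 scale for *Atf3* (-0.98), *Xbp1* (-0.73), *Herpud1* (-0.55), *Atf4* (-0.52), *Dnajb9* (-0.46), *Asns* (-0.40) and *Chac1* (-0.27). It was higher for *Trib3* (0.58) and *Ddit3* (0.46). The lines are 1 clone each, so the clone and the edit it carries cannot be told apart. Among all genes, 33.0% were lower and 34.8% higher in this comparison.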

How the results depend on the processing

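The 3 and 6 genes that rose and fell in *KD1*, the 2 and 7 in *KD2*, and the 2 higher and 7 lower in *KD2* against *KD1* had the same counts under the replicate block, which changed no call of the 10 genes. Over the leave-one-out fits the number that rose was 3 to 4 in *KD1* and 2 to 3 in *KD2*. Changes of call are those given for *Atf3*, *Dnajb9* and *Chac1*. Direction reversed only for values that had not passed, apart from *Dnajc3* in *KD2*, at 0.0031 minus the chromosome median. *Hspa5* in *KD2* against *KD1* was at 0.090 with library size only. *Slc7a11* in *KD1* was at 5.8e-05 with RLE factors, 0.013 under the filter of 10 counts, 0.018 with the 6 cultures compared, -0.044 to 0.049 over the leave-one-out fits and 0.042 without *WT* replicate 1 and *KD2* replicate 3. *Vangl2* in *KD2* was at -0.038 to 0.134 over the leave-one-out fits and -0.10 without both cultures. The causes were not tested, other than the subtraction itself. Library size alone shifts the median of all genes by 0.11 in *KD2* against *WT*. Relative to the chromosome median, *Chac1* and *Atf4* in *KD1* were at -0.14 and -0.24, and *Trib3*, *Chac1* and *Hspa5* in *KD2* against *KD1* at 0.27, -0.59 and -0.35. Calls of other named genes also turned on 1 culture. *Bcl2l11* in *KD1* was lost without *WT* replicate 1 (0.22, adjusted p = 0.060) or *KD1* replicate 2 (0.25, 0.055), *Ero1l* in *KD1* without *WT* replicate 2 (0.27, 0.052) and *Atf6* in *KD2* without *KD2* replicate 3 (-0.14, 0.091). *Eif2ak3* in *KD2* passed without *WT* replicate 2 (0.19, 0.028), and *Ern1* in *KD1* without *KD2* replicate 3 (0.21, 0.018). With library size only, *Atf6* in *KD2* was lost (-0.14, 0.18), as it was under the filter of 10 counts (-0.18, 0.11) and with the 6 cultures compared (-0.25, 0.064). *Eif2ak3* and *Pdia4* in *KD2* passed with library size only (0.23, 0.0052 and 0.21, 0.0043) and under the filter of 10 counts (0.19, 0.013 and 0.17, 0.013). *Ern1* in *KD1* also passed with no filter on low counts (0.20, 0.041), under the filter of 10 counts (0.23, 0.045) and with the 6 cultures compared (0.23, 0.027). With 3 cultures a line and 1 clone for each *KD* line, clone and disruption of *Vangl2* cannot be told apart.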
